A study of Mus musculus with 12 samples.

Results

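A set of 52 genes was followed through 12 RNA-seq libraries of a murine hepatoblastoma (HB) cell line. Nearly all encode plasma proteins that the liver makes and releases into the blood, while C5ar1 encodes a receptor. The genes were taken by symbol from a fixed list of albumin and other carriers, apolipoproteins, clotting factors, serpins, the inter-alpha-trypsin family, complement and acute phase proteins, and all 52 were found among the 45706 genes of the expression table. BN1-Tie2-EGFP cells came from a liver tumor of FVB/N mice that was driven by a deletion mutant of β-catenin (B) and a missense mutant of NRF2 (N), with Cdkn2a targeted by CRISPR, so all 4 groups share these alleles (Cdkn2a KO in the labels). They carry EGFP under the Tie2 (Tek) promoter, and clones with the reporter were pooled. The unsorted cells were studied in normoxia at 21% oxygen (UN) and after 2 days of hypoxia at 1% oxygen (UH). SN cells were the brightest EGFP cells sorted after 2 days of hypoxia and then expanded for about 10 days in normoxia, and SH cells were SN cells put back into 1% oxygen for 2 days. The titles call all 12 libraries EGFP+ BN1 cells, the unsorted ones included, so the groups were taken from the sort and oxygen labels. Each group had 3 libraries. The authors describe 3 independent replicas for each group. Nothing in the labels says that these came from separate cultures, so the tests measure the spread between libraries, which may be technical.

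Hepatocytes supply most of the protein in blood plasma. Hepatocyte nuclear factors such as HNF1 and HNF4A, together with C/EBP factors, keep these genes on in the adult liver. Inflammatory cytokines raise a subgroup of them, the acute phase proteins, through STAT3, NF-κB and C/EBP factors. Many of the clotting factors are made almost wholly by hepatocytes, whereas complement C3, clusterin, lipocalin 2 and pigment epithelium-derived factor are also made by many other cell types.

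Most of the plasma protein genes were near silent, and a few were very abundant. Levels are given in TPM (transcripts per 1000000, corrected for gene length), and expressed here means a group mean of 1 TPM or more. By this measure UN cells expressed 21 of the 52 genes, UH cells 19, SN cells 17 and SH cells 16. In all 4 groups 12 genes were kept: the carriers Trf, Cp and Sepp1, the apolipoprotein gene Apoe, the anticoagulant cofactor gene Pros1, the serpin gene Serpinf1, Itih2, the complement genes C1s1 and C3, and the acute phase genes Saa3, Lcn2 and Clu. The other 11 crossed the threshold in some groups only, and 29 stayed under it in all 4. Alb and Serping1 were expressed in unsorted cells alone, Apob in UN cells alone, Hpx and C4b in all groups but SN, Hp and Cfb in all but SH, Fetub and Orm1 in all but UH, Apoc1 in SN cells alone and Apoh in UH cells alone. Several of these lay close to the threshold, and the counts are not tests of a change. Alb and Apoh reached it in UH cells through UH1, at 4.23 and 2.12 TPM. UH2 and UH3 were under it, at 0.757 and 0.698 TPM for Alb and 0.962 and 0.634 for Apoh.

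By role, all 4 acute phase genes reached 1 TPM in at least 1 group, against 7 of 11 carriers, 4 of 8 apolipoproteins, 4 of 6 complement genes, 2 of 6 serpins, 1 of 4 inter-alpha-trypsin genes and 1 of 13 coagulation genes. The summed level of the 52 genes was 5944 TPM ± 1041 in UN (SD, n = 3), 4259 ± 255 in UH, 6962 ± 494 in SN and 2497 ± 618 in SH. The acute phase genes made up the most of it in UN and SN cells, with 3388 TPM ± 988 (SD, n = 3) and 4379 ± 725. In UH cells the serpins were the highest class, at 1729 TPM ± 111 (SD, n = 3). The carriers, nearly all of it Cp and Sepp1, summed to 675 TPM ± 120 (SD, n = 3) in SH cells and to between 978 and 1279 in the other groups.

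**Figure D1:**
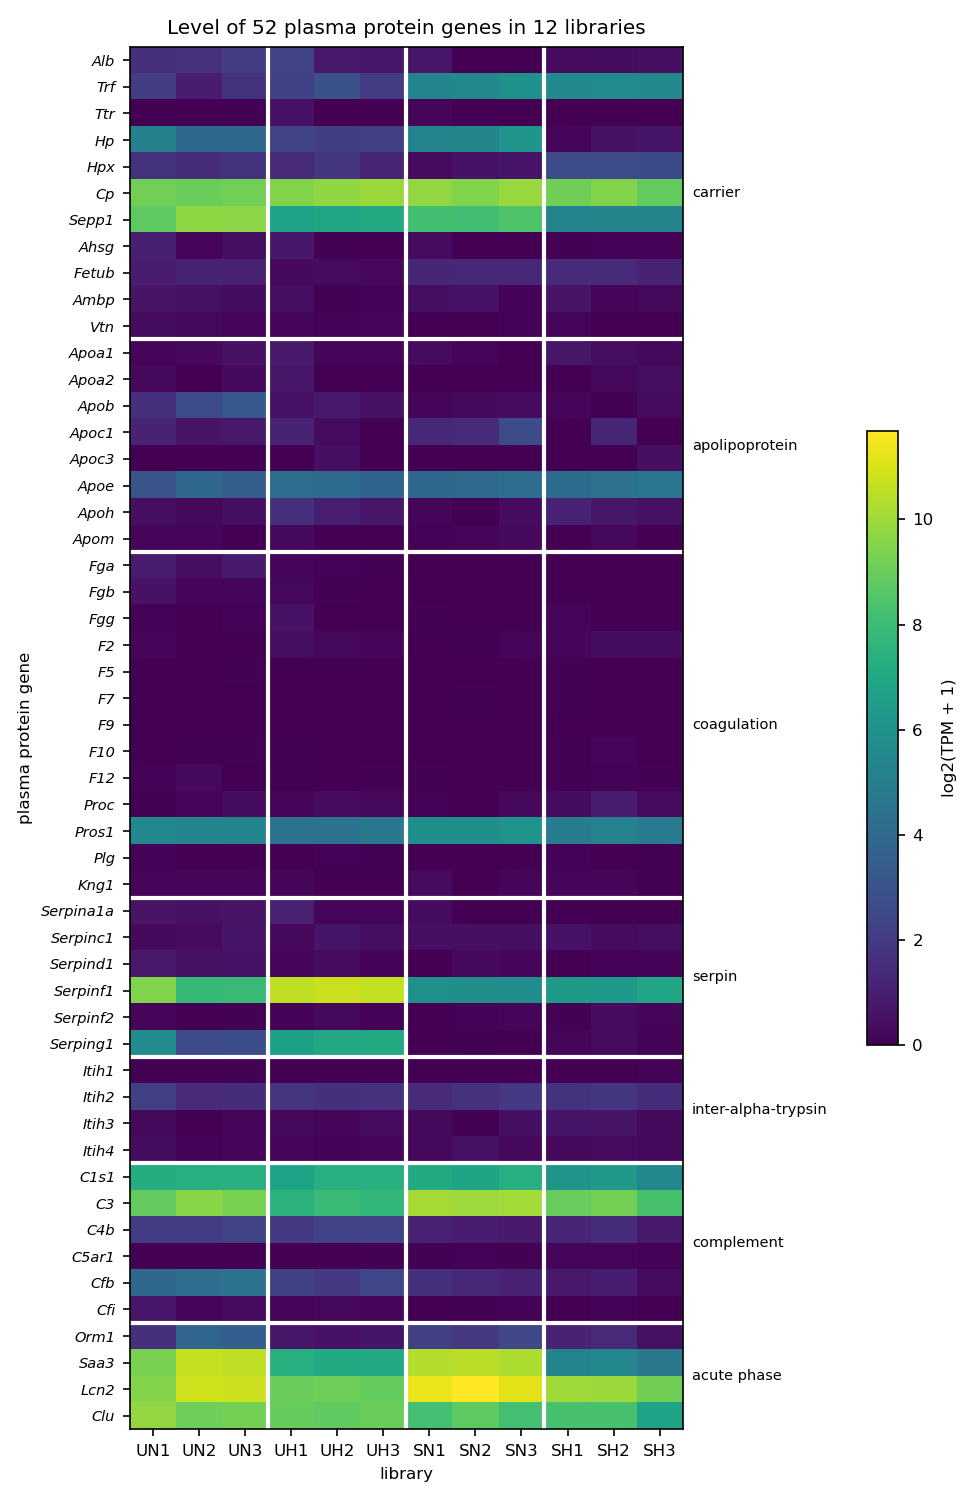
Level of each of the 52 plasma protein genes (y axis, ordered by role) in each of the 12 libraries (x axis, 3 per group) as log2(TPM + 1), from dark (0) to yellow (highest). All coagulation genes except Pros1 are dark throughout, and the acute phase genes Saa3, Lcn2 and Clu are bright in every group.

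**Figure D2:**
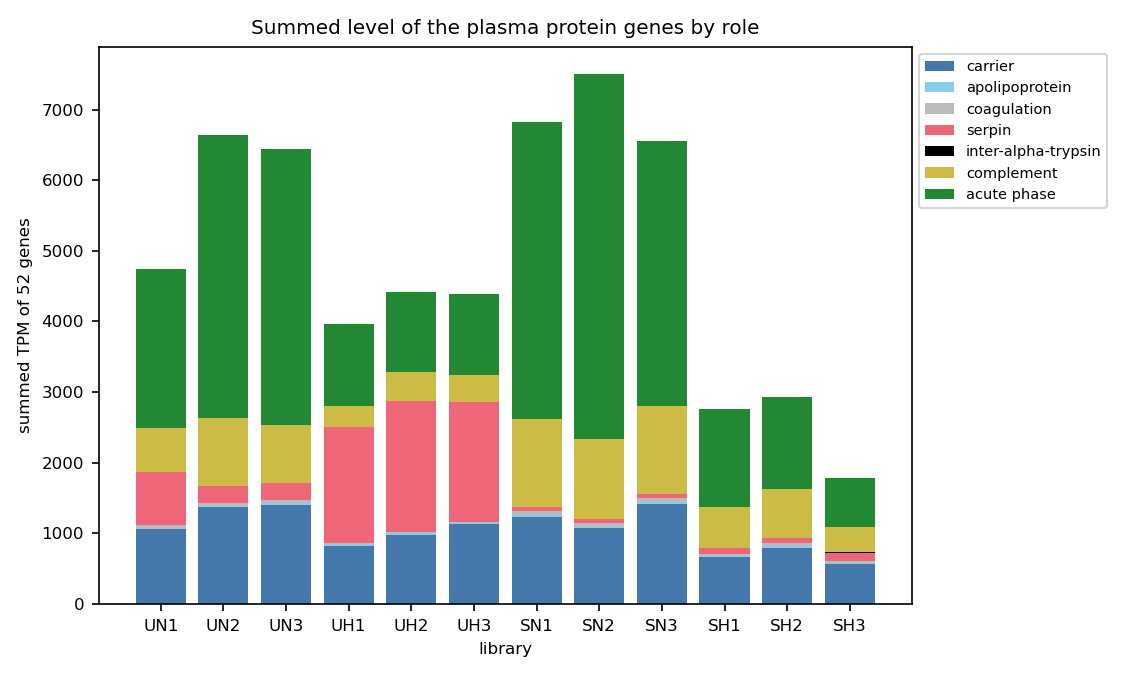
Summed TPM of the 52 genes (y axis) in each library (x axis), with the contribution of each role stacked by color. The 3 SH libraries are the lowest, at 1790 to 2935 TPM, and the serpin share is wide in the 3 UH libraries.

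The sequence before the start of some of these genes is shown because these examples hold short motifs known for liver, acute phase and hypoxia-responsive genes, and they were chosen for holding them. Promoters from RefSeq (GRCm38.p6) matched 38 of the 52 genes with 46 start sites. In the 250 bases before each start, searched on both strands, the C/EBP motif TTGCNNAA was present in 14 of the 46 member promoters (30.4%) and in 9.56% of all 32851 promoters. The HNF1 motif GTTAAT was present in 8 of the 46 (17.4%) and in 6.43% of all. The hypoxia response element core ACGTG was present in 3 of the 46 (6.52%) and in 16.6% of all, and GCGTG in 5 (10.9%) and in 28.2%. Neither the longer C/EBP palindrome TTGCGCAA, which is 1 form of TTGCNNAA, nor the HNF4 motif CAAAGTCCA was in any member promoter, and all promoters held them in 0.164% and 0.384%. Of the 16 promoters of members that were called in a contrast, 8 held TTGCNNAA, 2 GTTAAT, 1 ACGTG (Serpinf1) and 1 GCGTG (Fetub). Sepp1, Cp, Fetub and C1s1 each gave more than 1 of these promoters. Other called members, such as Trf, Hp and Serping1, had no matched promoter. Sepp1, lowered by hypoxia in both populations, held neither TTGCNNAA nor GTTAAT at any of its start sites. A match is a description of letters and not a binding site. Below, Saa3 and C3 are members that hypoxia lowered, Serpinf1 is the abundant member that was higher in UH cells, and Alb and Fgb are hepatocyte genes that were almost silent here. Capitals mark TTGCNNAA in Saa3 and C3, ACGTG in Serpinf1, and first TTGCNNAA and then GTTAAT in Alb and Fgb, in either orientation. Bases that GENCODE counts as part of the gene were left off the ends for Saa3 and Serpinf1.
Saa3, chr7:46715701-46715826, minus strand: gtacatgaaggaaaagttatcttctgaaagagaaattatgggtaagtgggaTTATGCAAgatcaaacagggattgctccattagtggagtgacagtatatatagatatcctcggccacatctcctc
C3, chr17:57228137-57228286, minus strand: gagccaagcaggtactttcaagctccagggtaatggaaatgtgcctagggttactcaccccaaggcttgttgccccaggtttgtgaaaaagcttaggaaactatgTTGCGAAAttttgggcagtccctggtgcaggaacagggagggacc
Serpinf1, chr11:75422702-75422873, minus strand: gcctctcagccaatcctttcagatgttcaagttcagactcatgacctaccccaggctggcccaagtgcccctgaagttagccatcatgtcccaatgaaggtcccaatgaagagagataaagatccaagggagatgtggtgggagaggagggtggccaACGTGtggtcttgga
Alb, chr5:90460720-90460869, plus strand: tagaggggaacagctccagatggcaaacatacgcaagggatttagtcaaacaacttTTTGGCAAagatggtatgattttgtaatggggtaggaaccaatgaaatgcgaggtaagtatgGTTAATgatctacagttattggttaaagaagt
Fgb, chr3:83049864-83050013, minus strand: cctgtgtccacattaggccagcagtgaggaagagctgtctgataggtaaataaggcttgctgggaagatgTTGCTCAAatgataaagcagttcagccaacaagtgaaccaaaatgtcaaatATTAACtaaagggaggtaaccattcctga

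Groups were compared with limma on log2(TPM + 1) over all 18909 genes with a mean of at least 0.1 TPM, with calls set at an adjusted p (Benjamini-Hochberg) below 0.05 together with an absolute log2 fold change above 1. Of the 52 members, 40 passed the filter. The 12 that did not were Apoc3, C5ar1, F10, F12, F5, F7, F9, Fgb, Fgg, Itih1, Plg and Ttr. In at least 1 of the 5 contrasts 19 members were called, and 21 of those tested were called in none. All 43 calls between pairs of groups were made on libraries that did not overlap. The call rule itself favors this, and the share over all called genes is not given here, so it adds no support. Folds are ratios of mean TPM, and log2 fold changes are on the log2(TPM + 1) scale, which makes changes of low genes smaller. In bulk RNA, fewer cells of a type and less RNA per cell cannot be told apart.

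The identity of the cells was checked on fixed marker lists. Of 10 hepatocyte markers, 4 of which are members (Alb, Ttr, Apoa1 and Serpina1a), 4 reached 1 TPM in at least 1 of the 12 libraries (Alb, Serpina1a, Hnf4a and Ass1), and Ass1 carried most of their sum. The hepatocyte sum was 34.1 to 44.9 TPM in UN and 44.2 to 48.5 in UH. It was 80.0 to 112 in SN and 83.5 to 153 in SH. Ass1 was called higher in SN than UN and in SH than UH, while Alb and Hnf4a were called lower in SN than UN. Endothelial markers summed to 0.628 to 0.765 TPM in UN and 0.337 to 0.913 in UH. Their sum was 2.59 to 3.12 in SN and 4.91 to 5.63 in SH. Tek, whose promoter drives the sorting reporter, was called higher in SN than UN and in SH than UH, and Vwf in SH than SN. Of 7 macrophage markers, Clec4f was at 0 in every group, Adgre1 in all but SH and C1qa in all but SN. Cd68 was called higher in UH vs UN, SN vs UN, SH vs SN and SH vs UH, and Csf1r in UH vs UN. The macrophage sum, mostly Cd68 and Csf1r, was 5.03 to 14.5 TPM in the normoxic groups and 21.4 to 62.6 in the hypoxic ones. Hepatoblast markers summed to 120 to 268 TPM in unsorted and 10.6 to 24.7 in sorted libraries, a sum carried by Igf2, H19 and Dlk1. Afp, the fetal albumin relative, moved the other way and was called higher in SN than UN (1.86 on the log2 scale) and in SH than UH (1.40). Neutrophil markers summed to at most 1.02 TPM. Cholangiocyte markers, most of the sum from Spp1, summed to 2755 to 3134 TPM in UN, 1118 to 1177 in UH, 4138 to 4749 in SN and 877 to 1056 in SH. The keratin gene Krt19 did not follow Spp1, since it was called higher under hypoxia in unsorted cells, at 29.4 to 83.4 TPM in UN and 424 to 513 in UH, and in sorted cells, at 0.438 to 1.36 TPM in SN and up to 6.07 in SH, with every SH library above every SN library. Krt7 was also called higher in SH than SN, at 11.4 to 14.6 against 4.40 to 6.72 TPM. Markers of stellate cells and fibroblasts, mainly collagens in unsorted cells, summed to 838 to 4234 TPM in UN libraries, 4528 to 6779 in UH, 165 to 185 in SN and 46.8 to 76.2 in SH. The genes Col1a1, Col1a2 and Col3a1 were called higher in UH than UN and lower in both sorted groups than in their unsorted partners. Other markers of the list did not follow the collagens throughout. Dcn and Pdgfrb were called lower in UH than UN and in SH than SN, and not called in SN vs UN. Pdgfrb was called lower in SH than UH, like the collagens. Des was called higher in SH than in SN or UH, and Col1a1 higher in SH than SN. UN1 stood apart from UN2 and UN3, with a sum of 4234 against 984 and 838 TPM for these markers. Over 3875 genes that differed more than 2-fold between UH and the other UN libraries, UN1 lay at a median of 0.199 of the way from UN to UH. UH1 was the highest of its group for 15 of the 29 members under threshold, and SH3 was the lowest SH library for C3, Lcn2, Clu, Cp and C1s1. Where leaving out any of these libraries ended a call of a member or moved a called fold by over 1.5 times, the value without it is given. Uncalled comparisons, such as those of Alb with UH, are not covered.

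Hypoxia lowered more of the plasma protein genes than it raised, and in unsorted cells the same held over all genes. Falls were called in acute phase, carrier, complement and apolipoprotein genes. In unsorted cells (UH vs UN) 8 of the 40 members tested were called lower, against 11.8% of all genes, and 2 were called higher, against 5.46%. In sorted cells (SH vs SN) 8 of 40 were called lower, against 5% of all genes, and 1 was called higher, against 7.47%. The median log2 fold change of the tested members was −0.148 in unsorted and −0.020 in sorted cells, beside −0.191 and 0.028 over all genes. Hp, Sepp1, C3, Orm1, Saa3 and Lcn2 were called lower in both. The lower calls of unsorted cells alone were Apob and Cfb, and those of sorted cells alone were Apoc1 and C1s1. Without SH3, the lower calls of Apoc1, C1s1, C3 and Orm1 in sorted cells were lost. Serpinf1 and Serping1 rose in unsorted cells, and Hpx rose in sorted cells. A direct test of the difference between the responses, (SH − SN) − (UH − UN), called 3 members higher and 5 lower, beside 8.08% and 2.18% of all genes.

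**Figure D3:**
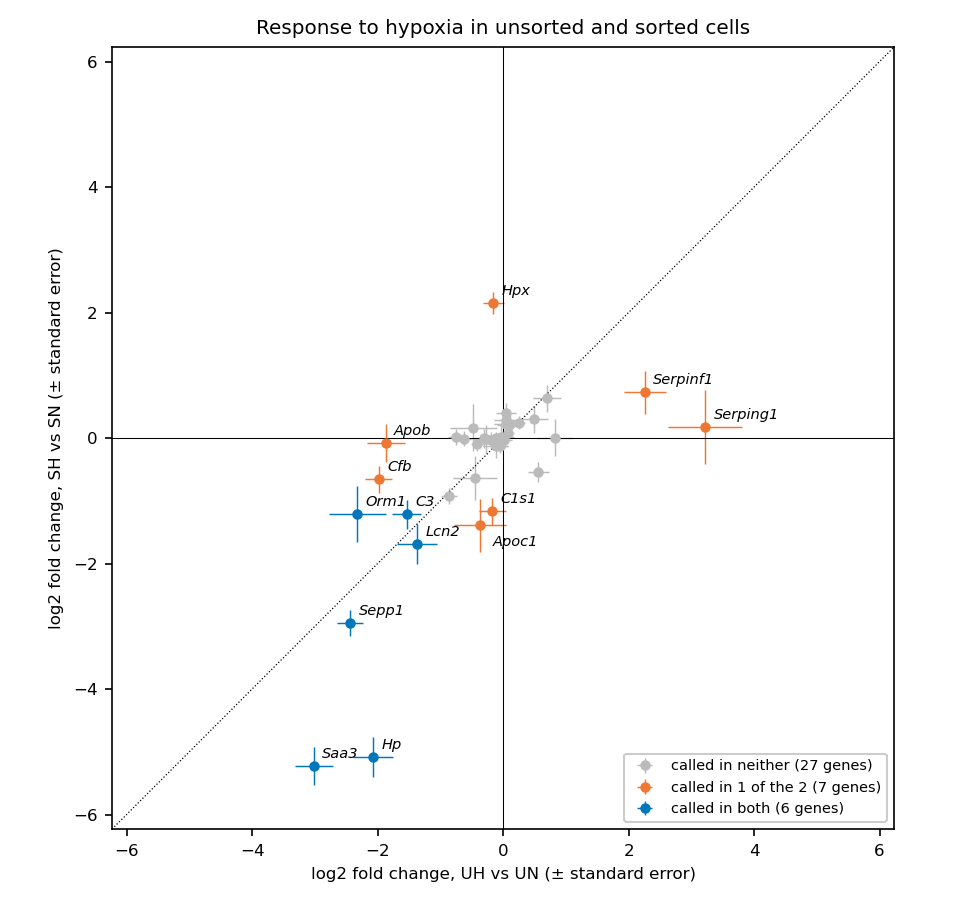
Log2 fold change of the 40 tested members under hypoxia in unsorted cells (x axis) and in sorted cells (y axis), with standard errors from limma, in blue where called in both, orange in 1 of the 2 and gray in neither; the dotted line marks equal change. Saa3 and Hp lie farthest down, Serpinf1 and Serping1 stand to the right near the zero line of sorted cells, and Hpx stands above it.

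Between sorted and unsorted cells, Trf was far higher and a pair of serpin genes far lower in the sorted ones. In normoxia (SN vs UN) 3 of 40 members were called higher, against 3.2% of all genes, and 8 lower, against 7.57%. In hypoxia (SH vs UH) 4 were called higher, against 7.65%, and 9 lower, against 5.35%. Member medians were −0.162 and −0.048 on the log2 scale, beside −0.056 and 0.168 over all genes. Trf was higher and Sepp1, Serpinf1, Serping1, C4b and Cfb were lower in sorted cells under both conditions. Hp and Hpx were called under both in opposite directions. Contrasts that share a group, such as UH vs UN and SN vs UN, are not independent of each other. With median-of-ratios scaling the median of all genes moved from −0.191 to 0 (UH vs UN) and from 0.168 to 0.034 (SH vs UH), and the calls over all genes split into 1564 higher and 1217 lower in place of 1032 and 2222, and 1021 and 1323 in place of 1447 and 1012. In the difference of responses that split was 901 and 782 in place of 1527 and 412. Under that scaling 3 members were called higher and 8 lower by UH vs UN, and 2 and 9 by SH vs UH.

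**Figure D4:**
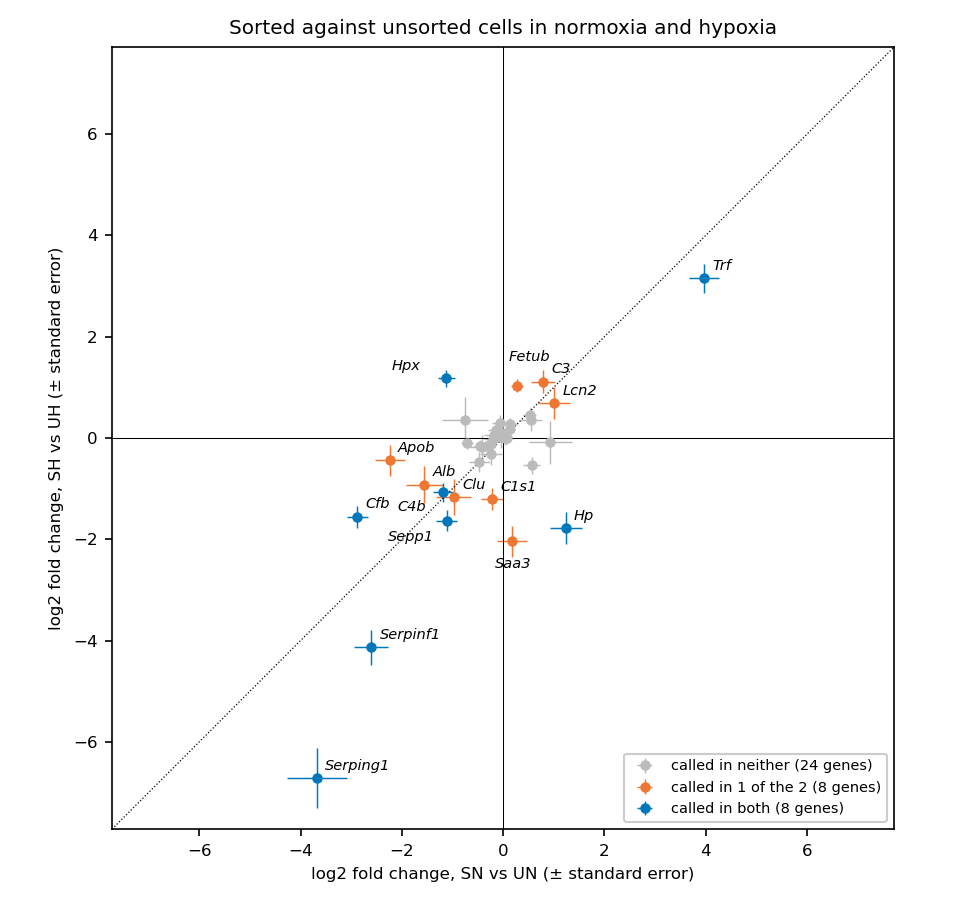
Log2 fold change of the 40 tested members in sorted against unsorted cells in normoxia (x axis) and in hypoxia (y axis), with standard errors from limma and colors as for the hypoxia plot (blue called in both, orange in 1, gray in neither). Trf stands alone at the upper right, Serping1 and Serpinf1 at the lower left, and Hp and Hpx lie off the dotted line of equal difference on opposite sides.

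The acute phase proteins rise in plasma during inflammation. The cholangiocyte marker Spp1, which carried most of that list's sum, was called lower under hypoxia in both populations like Saa3 and Lcn2, while Krt19 was called higher in both. The part of these genes in the results was not tested. Saa3, a serum amyloid A made by many tissues, was at 633, 1615 and 1539 TPM in UN libraries, 158, 139 and 132 in UH, 1312, 1434 and 1199 in SN and 37.5, 41.6 and 24.9 in SH. Both hypoxic groups lay below both normoxic groups without overlap, and SH below UH. The fall was 8.82-fold in unsorted cells (log2 fold change −3.02 ± 0.30 SE, limma adjusted p = 9.93e-06) and 37.9-fold in sorted cells (−5.23 ± 0.30, adjusted p = 3.65e-07). The response in sorted cells was larger by a log2 difference of −2.21 (SE 0.43, limma adjusted p = 0.00434). SN and UN overlapped (0.17 ± 0.30, limma adjusted p = 0.717), and this value became −0.27 without UN1. The liver-type relatives Saa1 and Saa2 had group means of at most 1.88 TPM, and how reads of the copies were shared out is not known.

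Lcn2, lipocalin 2, binds bacterial iron carriers. Its level was 740, 1831 and 1748 TPM in UN, 517, 542 and 484 in UH, 2604, 3290 and 2254 in SN and 1044, 959 and 572 in SH. Each hypoxic group lay below its normoxic partner. The fall was 2.80-fold in unsorted cells (−1.37 ± 0.32, limma adjusted p = 0.00409) and 3.16-fold in sorted cells (−1.69 ± 0.32, adjusted p = 0.00136), and the difference of responses was not called (−0.32 ± 0.45, adjusted p = 0.642). SN exceeded UN by 1.89-fold (1.01 ± 0.32, limma adjusted p = 0.0300), a call that was lost without UN1 (0.58), without SN2 (0.86), without SN1 (1.03) and with no filter on low genes (1.01).

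Orm1, the acid glycoprotein orosomucoid, was at 2.11, 12.9 and 10.1 TPM in UN, 0.611, 0.485 and 0.605 in UH, 3.66, 2.89 and 4.56 in SN and 1.17, 1.62 and 0.419 in SH. UN1 was far below the other UN libraries but still above UH. The fall in unsorted cells was 14.7-fold (−2.32 ± 0.45, limma adjusted p = 0.00122), and its log2 value was −2.99 without UN1. In sorted cells it was 3.46-fold (−1.21 ± 0.45, limma adjusted p = 0.0490), at the edge of the threshold, and this call was lost under 11 of 18 alternatives. Without each of the 3 SH libraries in turn it lay between −1.41 and −0.96, without each SN library between −1.34 and −1.09, and without any 1 UH library it was −1.21. The nearly identical genes Orm2 and Orm3 had UN means of 2.63 and 2.08 TPM, and reads could be split among them.

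Clu, the extracellular chaperone clusterin, was at 874, 553 and 608 TPM in UN, 482, 459 and 527 in UH, 292, 446 and 296 in SN and 311, 307 and 107 in SH. It was called in SH vs UH alone, where it was 2.02-fold lower (−1.17 ± 0.35, limma adjusted p = 0.0191). SH3 was well below the other SH libraries, and without it the value was −0.66 and no longer called. The call was also lost without UH3 (−1.11).

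**Figure D5:**
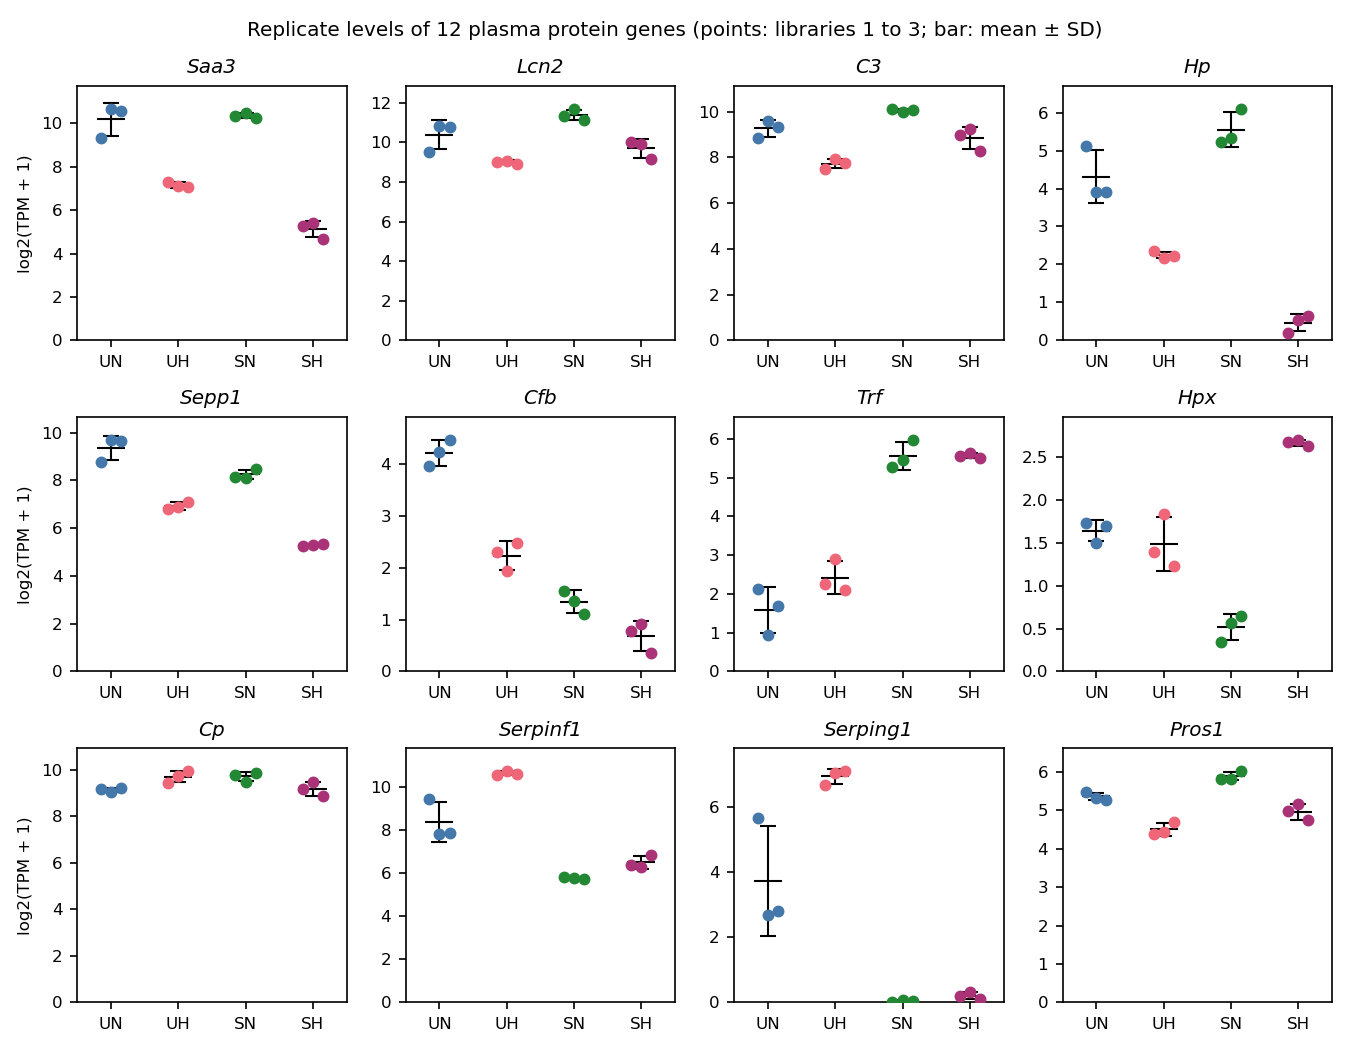
Level of 12 members in each library (points) as log2(TPM + 1) by group (x axis), with the mean ± SD of 3 libraries in black. Saa3, Lcn2, C3, Hp and Sepp1 are lower in UH than UN and in SH than SN, Trf is high in both sorted groups, and Serpinf1 and Serping1 are high in UH with UN1 above the other UN libraries.

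Among the carriers, Hp encodes haptoglobin, which binds free hemoglobin. It was at 33.8, 14.0 and 14.1 TPM in UN, 4.09, 3.53 and 3.63 in UH, 36.6, 39.4 and 67.1 in SN and 0.155, 0.451 and 0.572 in SH. The order SN, UN, UH, SH had no overlap between neighbors. Hypoxia lowered Hp 5.50-fold in unsorted cells (−2.07 ± 0.32, limma adjusted p = 2.30e-04) and 121.5-fold in sorted cells (−5.09 ± 0.32, adjusted p = 5.48e-07). The difference of responses was −3.02 ± 0.45 (limma adjusted p = 9.53e-04). SN exceeded UN 2.31-fold (1.24 ± 0.32, limma adjusted p = 0.0102), and without SN3 this was 0.97 and not called. SH was 9.56-fold below UH (−1.78 ± 0.32, limma adjusted p = 8.76e-04).

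Hpx encodes hemopexin, the heme carrier that works beside haptoglobin, and it moved the other way. It was at 2.31, 1.83 and 2.23 TPM in UN, 1.62, 2.58 and 1.35 in UH, 0.271, 0.474 and 0.564 in SN and 5.38, 5.49 and 5.18 in SH. SN was the lowest and SH the highest group, with no overlap with any other group. Hypoxia raised it 12.3-fold in sorted cells (2.15 ± 0.17, limma adjusted p = 2.91e-06) and left UH and UN overlapping (−0.15 ± 0.17, adjusted p = 0.499, or 0.08 with median-of-ratios scaling). The difference of responses was 2.30 ± 0.24 (limma adjusted p = 1.16e-04). The level was low in absolute terms, since the highest library had 5.49 TPM.

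Trf encodes transferrin, the iron carrier. It was at 3.36, 0.921 and 2.24 TPM in UN, 3.77, 6.46 and 3.26 in UH, 37.9, 42.4 and 61.4 in SN and 46.4, 49.0 and 44.0 in SH. Every sorted library lay above every unsorted library. SN exceeded UN 21.7-fold (3.97 ± 0.29, limma adjusted p = 1.70e-06) and SH exceeded UH 10.3-fold (3.15 ± 0.29, adjusted p = 7.90e-06). Hypoxia gave 0.83 ± 0.29 in unsorted cells (limma adjusted p = 0.0372, under the fold threshold) and 0.01 ± 0.29 in sorted cells (adjusted p = 0.999). Gm20425, an annotated gene on the same strand that overlaps Trf, had group means of 7.83, 13.3, 43.6 and 39.4 TPM in UN, UH, SN and SH, so reads of shared exons may have been split between them.

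Sepp1 encodes selenoprotein P, which carries selenium from the liver. It was at 435, 822 and 792 TPM in UN, 110, 116 and 137 in UH, 281, 276 and 357 in SN and 37.1, 38.5 and 39.1 in SH. The 4 groups did not overlap. Hypoxia lowered it 5.65-fold in unsorted cells (−2.44 ± 0.21, limma adjusted p = 2.80e-06) and 7.96-fold in sorted cells (−2.95 ± 0.21, adjusted p = 1.27e-06), and the difference of responses was not called (−0.51 ± 0.29, adjusted p = 0.227). It was 2.24-fold lower in SN than UN (−1.12 ± 0.21, limma adjusted p = 0.00150), a call lost without UN2 (−0.95), without UN3 (−0.98) and with median-of-ratios scaling (−0.99). SH was 3.16-fold below UH (−1.63 ± 0.21, limma adjusted p = 8.11e-05).

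Cp, the copper ferroxidase ceruloplasmin, was abundant in every library, at 577, 530 and 592 TPM in UN, 698, 853 and 981 in UH, 881, 714 and 931 in SN and 571, 705 and 470 in SH. No pair of groups differed past the fold threshold. Its direction under hypoxia was opposite in the 2 populations, with 0.56 ± 0.17 in unsorted cells (limma adjusted p = 0.0147) and −0.54 ± 0.17 in sorted cells (adjusted p = 0.0203). The difference of responses was called at −1.11 ± 0.23 (limma adjusted p = 0.00676), and not without SH3 (−0.96) or UH3 (−0.99). Hps3 overlaps Cp on the opposite strand at group means of 3.57 to 7.89 TPM.

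Alb, albumin, the main protein of plasma, was at 2.07, 2.16 and 3.30 TPM in UN and at 4.23, 0.757 and 0.698 in UH. SN1 had 0.636 TPM, SN2 and SN3 were listed at 0, and SH libraries had 0.262, 0.318 and 0.390. UN lay above SN without overlap, and the UH group was split by UH1. Alb was called lower in SN than UN (−1.56 ± 0.37, limma adjusted p = 0.00674). Fetub, a fetuin, was at 0.896, 1.21 and 1.12 TPM in UN, 0.213, 0.281 and 0.198 in UH, 1.39, 1.56 and 1.55 in SN and 1.69, 1.72 and 1.19 in SH. It was 6.65-fold higher in SH than UH (1.04 ± 0.13, limma adjusted p = 5.55e-05), just past the fold threshold, and fell under it without SH1 (0.99), without SH2 (0.98) and with median-of-ratios scaling (0.98). The carriers Ttr, Ahsg, Ambp and Vtn stayed under threshold in all 4 groups.

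Among the apolipoproteins, Apoe, a ligand for lipoprotein receptors made by many cell types, was kept at group means of 10.7 TPM ± 3.6 (SD, n = 3) in UN, 15.1 ± 2.5 in UH, 15.7 ± 1.5 in SN and 19.7 ± 3.2 in SH, with no call in any contrast. Apob, the structural protein of the very-low-density lipoprotein particle, was at 2.10, 5.46 and 8.31 TPM in UN and no higher than 0.803 in any other library. It was 9.28-fold lower in UH than UN (−1.87 ± 0.30, limma adjusted p = 3.42e-04) and 24.7-fold lower in SN than UN (−2.23 ± 0.30, adjusted p = 1.77e-04). SH vs SN gave −0.08 ± 0.30 (limma adjusted p = 0.879) from a level already near 0, and the difference of responses was called at 1.79 ± 0.43 (adjusted p = 0.0124).

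Apoc1, a small exchangeable apolipoprotein, was at 1.21, 0.530 and 0.743 TPM in UN, 1.16, 0.263 and 0 in UH, 1.53, 1.59 and 5.31 in SN and 0, 1.28 and 0 in SH. The call of lower Apoc1 in SH than SN (−1.39 ± 0.42, limma adjusted p = 0.0193) was lost without SN3 (−0.96), SH1 (−1.19) or SH3 (−1.19). Apoh, beta-2-glycoprotein I, reached its highest values in hypoxia, with 2.12, 0.962 and 0.634 TPM in UH against 0.377, 0.207 and 0.398 in UN, and its log2 fold change of 0.70 ± 0.22 (limma adjusted p = 0.0202) was under the fold threshold. Apoa1, Apoa2, Apoc3 and Apom stayed at or below 0.789 TPM in every library.

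The clotting factors were near 0 in all groups. The chains of fibrinogen (Fga, Fgb, Fgg), prothrombin (F2), factors V, VII, IX, X and XII, protein C, plasminogen and kininogen had single-library maxima between 0 and 0.929 TPM, the highest being Proc in SH2, and F9 was listed at 0 in all 12 libraries. Fga, the highest of the fibrinogen genes, was at 0.875, 0.369 and 0.822 TPM in UN and no higher than 0.131 in any other library. Its log2 fold changes of −0.63 ± 0.12 for UH against UN (limma adjusted p = 8.62e-04) and −0.72 ± 0.12 for SN against UN (adjusted p = 5.85e-04) did not reach the fold threshold on the log2(TPM + 1) scale.

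Pros1, protein S, the vitamin K-dependent cofactor of activated protein C that endothelial cells also make, was the exception. It was at 43.5, 39.3 and 37.9 TPM in UN, 19.8, 20.7 and 25.0 in UH, 55.8, 56.0 and 64.1 in SN and 30.4, 35.1 and 26.0 in SH. The 4 groups did not overlap, and both hypoxic groups lay below both normoxic groups. The difference was 1.84-fold in unsorted cells (−0.86 ± 0.13, limma adjusted p = 1.97e-04) and 1.92-fold in sorted cells (−0.93 ± 0.13, adjusted p = 1.59e-04), both short of the fold threshold and so not counted as calls.

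Serpins are protease inhibitors, and a pair of them separated sorted from unsorted cells. Serpinf1, pigment epithelium-derived factor, was at 700, 229 and 233 TPM in UN, 1537, 1722 and 1559 in UH, 56.6, 53.9 and 51.8 in SN and 81.8, 77.7 and 116 in SH. UH was the highest group and every sorted library lay below every unsorted one. Hypoxia raised it 4.14-fold in unsorted cells (2.26 ± 0.34, limma adjusted p = 2.02e-04) and gave 0.73 ± 0.34 in sorted cells (adjusted p = 0.109). SN was 7.16-fold below UN (−2.61 ± 0.34, limma adjusted p = 1.40e-04) and SH was 17.5-fold below UH (−4.13 ± 0.34, adjusted p = 2.93e-06). Without UN1 the rise under hypoxia was 6.95-fold in unsorted cells (log2 2.79), and SN was 4.27-fold below UN (−2.07). The difference of responses (−1.53 ± 0.48, limma adjusted p = 0.0411) was lost under 12 of 18 alternatives, at values from −1.56 to −1.26, among them leaving out any 1 library other than UN1 and SH3.

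Serping1, the C1 inhibitor of the complement and contact systems, was at 49.5, 5.35 and 5.98 TPM in UN and at 101, 131 and 135 in UH. In sorted cells SN1 was listed at 0, SN2 and SN3 had 0.0458 and 0.0257, and SH libraries had 0.152, 0.259 and 0.0693. UN1 lay between the other UN libraries and UH. Hypoxia raised it 6.02-fold in unsorted cells (3.22 ± 0.59, limma adjusted p = 8.56e-04) and gave 0.18 ± 0.59 in sorted cells (adjusted p = 0.856). SH was 763-fold below UH (−6.72 ± 0.59, limma adjusted p = 5.03e-06), and SN was below UN (−3.68 ± 0.59, adjusted p = 5.99e-04). UN1 decided these sizes, since without it the rise under hypoxia was 21.6-fold (4.20), SN vs UN was −2.70 and the difference of responses was −4.02. With all libraries, the difference of responses (−3.05 ± 0.84, limma adjusted p = 0.0240) was lost without UN2 (−2.53), without UN3 (−2.59), without UH2 (−2.99) and with a pseudocount of 0.1 (−2.34). Like Serpinf1 and Serping1, the summed fibroblast markers, in unsorted cells mainly the collagens Col1a1, Col1a2 and Col3a1, were highest in UH, lowest in sorted cells and higher in UN1 than in UN2 and UN3. In sorted cells the sum was lower in SH (46.8 to 76.2 TPM) than in SN (165 to 185), where neither serpin gene was called. Dcn and Pdgfrb of the same list were called lower in UH than UN. The part of these markers in the result was not tested. Serpina1a (alpha-1-antitrypsin), Serpinc1 (antithrombin), Serpind1 (heparin cofactor II) and Serpinf2 (alpha-2-antiplasmin) stayed under threshold, with Serpina1a highest at 1.07 TPM in UH1.

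The inter-alpha-trypsin heavy chains bind hyaluronan in the matrix. Itih2 was kept at 1.66 to 3.61 TPM over the 12 libraries with log2 fold changes between −0.04 and 0.06 in the 5 contrasts, none of them called. Itih1, Itih3 and Itih4 did not exceed 0.572 TPM in any library.

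In the complement system, C3, on which its pathways converge, was at 462, 775 and 640 TPM in UN, 181, 240 and 214 in UH, 1101, 1014 and 1073 in SN and 508, 602 and 311 in SH. SN was the highest group and UH the lowest, both without overlap. Hypoxia lowered C3 2.95-fold in unsorted cells (−1.53 ± 0.23, limma adjusted p = 2.16e-04) and 2.24-fold in sorted cells (−1.22 ± 0.23, adjusted p = 0.00144), the latter −0.94 and not called without SH3. SH was 2.23-fold above UH (1.11 ± 0.23, limma adjusted p = 0.00253), which fell under the fold threshold without SH2 (0.91) and with median-of-ratios scaling (0.89).

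Cfb, factor B of the alternative pathway, was lower in sorted than in unsorted cells. It was at 14.5, 17.8 and 21.1 TPM in UN, 3.92, 2.82 and 4.58 in UH, 1.95, 1.55 and 1.16 in SN and 0.719, 0.876 and 0.281 in SH, and the 4 groups did not overlap. It was 4.72-fold lower in UH than UN (−1.98 ± 0.21, limma adjusted p = 1.63e-05) and 11.4-fold lower in SN than UN (−2.88 ± 0.21, adjusted p = 1.68e-06). SH vs SN gave −0.66 ± 0.21 (limma adjusted p = 0.0270), and the difference of responses of 1.32 ± 0.30 (adjusted p = 0.0100) was not called with a pseudocount of 0.1 (0.95). Gm20547, a gene annotated on the same strand across Cfb, had group means of at most 0.0456 TPM.

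C4b, the classical pathway component C4, was at 3.04, 3.07 and 4.26 TPM in UN, 3.00, 4.09 and 4.18 in UH, 1.12, 0.925 and 0.788 in SN and 1.31, 1.79 and 0.747 in SH. It was 3.67-fold lower in SN than UN (−1.19 ± 0.20, limma adjusted p = 6.91e-04) and 2.93-fold lower in SH than UH (−1.08 ± 0.20, adjusted p = 0.00105), the latter −0.90 without SH3 and not called. Its near-identical copy C4a had group means of 2.99, 2.76, 3.32 and 4.57 TPM in UN, UH, SN and SH, so how reads were split between the copies is uncertain. C1s1, the C1s protease, was at 151, 163 and 160 TPM in UN, 109, 157 and 159 in UH, 139, 114 and 160 in SN and 66.0, 78.4 and 41.7 in SH, so SH alone stood below the rest. It was 2.22-fold lower in SH than SN (−1.17 ± 0.22, limma adjusted p = 0.00117) and 2.29-fold lower in SH than UH (−1.21 ± 0.22, adjusted p = 9.39e-04), and neither passed the fold threshold without SH3 (−0.91 and −0.95). Gm16567, annotated on the opposite strand of C1s1, had group means of 28.5 to 58.4 TPM. The receptor gene C5ar1 and the inhibitor gene Cfi stayed under threshold.

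Genes around these proteins were read from lists outside the members. Of 24 liver transcription factors, 20 were tested, and 8 fell in UH vs UN, beside 11.8% of all genes. Hnf4a, a master regulator of hepatocyte genes, was at 1.70, 4.86 and 4.98 TPM in UN and at most 0.429 in every other library, and its log2 fold change was −1.97 under hypoxia in unsorted cells and −1.86 in SN against UN. Cebpa, which drives many plasma protein genes, was at 7.69, 13.9 and 17.9 TPM in UN, 1.91, 2.72 and 3.10 in UH, 4.94, 4.68 and 5.58 in SN and 11.1, 9.23 and 8.12 in SH, with a difference of responses of 2.71. Cebpd, a C/EBP factor of the acute phase, was lowest in SH at 24.3, 23.4 and 19.6 TPM against 56.6 to 103 TPM in all other libraries (−1.50 in SH vs SN). Of 22 acute phase signalling genes tested, 4 fell under hypoxia in unsorted cells (Il6st, Il1r1, Il1rap and Cd14), beside 11.8% of all genes, and 3 fell in sorted cells (Il1rap, Cebpd and Cd14), beside 5%.

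Of 67 other liver-secreted proteins found, 25 were expressed in UN, 23 in UH, 24 in SN and 22 in SH. Of 42 tested, 6 rose and 9 fell by UH vs UN, 5 and 8 by SN vs UN, 5 and 7 by SH vs SN, and 7 and 8 by SH vs UH. Of all genes, UH vs UN called 5.46% higher and 11.8% lower, SN vs UN 3.2% and 7.57%, SH vs SN 7.47% and 5%, and SH vs UH 7.65% and 5.35%. Gc, the vitamin D-binding protein, was lowered by hypoxia in both populations and was lower in sorted cells, at 289 TPM ± 99 (SD, n = 3) in UN, 101 ± 2 in UH, 24.3 ± 4.1 in SN and 6.54 ± 0.32 in SH. Angptl4, a lipoprotein lipase inhibitor, rose in both populations, from 14.3 ± 2.5 to 86.5 ± 7.1 TPM in unsorted cells and from 1.22 ± 0.31 to 17.9 ± 3.4 TPM in sorted cells (mean ± SD, n = 3). The export and vitamin K-dependent carboxylation genes, 10 of 10 tested, gave 1 call in each of the 4 comparisons of groups. Under hypoxia Vkorc1l1 was called lower in unsorted cells, beside 11.8% of all genes, and Vkorc1 higher in sorted cells, beside 7.47%. Pcsk6 was called lower in sorted than in unsorted cells, both in normoxia (7.57% of all genes lower) and in hypoxia (5.35%). Of 15 cell-surface clotting and fibrinolysis genes tested, 5 rose with hypoxia in unsorted and 4 in sorted cells, beside 5.46% and 7.47% of all genes.

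Of 17 lipoprotein assembly and uptake genes, 4 rose and 3 fell with hypoxia in unsorted cells, and 7 rose and 2 fell in sorted cells. Of all genes, 5.46% rose and 11.8% fell in the former and 7.47% and 5% in the latter. Mttp, which loads lipid onto apolipoprotein B, differed in its response by 1.88 on the log2 scale. Of 12 plasma protein receptors tested, Lepr rose in UH vs UN, and Tfrc, the transferrin receptor, was called higher in SH than in SN or UH, at 199 TPM ± 44 (SD, n = 3) against 68.6 ± 7.7 and 76.1 ± 23.3.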

How the data were processed

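RNA was sequenced from 12 libraries of BN1-Tie2-EGFP cells, 3 in each of UN, UH, SN and SH, grouped by their labels. The authors processed paired-end reads of a stranded mRNA kit with nf-core/rnaseq 3.12.0 and Salmon against mm10 (tools and build per the submitters' processing notes) and deposited TPM values, which sum to 1000000 in each library. The annotation release is not given in the sources used here. TPM keeps no depth, so no counting interval or detection floor could be given, and precision is the spread of 3 libraries.

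Coordinates came from GENCODE M21 (GRCm38), where 98.8% of gene identifiers were found. The members were grouped by role. Levels were summarised as mean ± SD of TPM, and log2(TPM + 1) of the 18909 genes with a mean of at least 0.1 TPM was fitted in limma 3.58.1 (R 4.3.3), with group means for all 12 libraries and trended empirical Bayes moderation. Adjusted p-values were taken over all genes in each of 5 contrasts. Tested on simulated data for UH vs UN (18909 genes, 200 changed by a log2 of 2), it recovered 197. The changed genes were all drawn from the more abundant genes, so recovery was not tested for low genes, which most members are. Figures were made with Python 3.11.15 and matplotlib 3.10.9.

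The members and the gene lists were chosen with earlier results of these data known. A member was described by library where it was called in at least 1 contrast or had a mean of at least 10 TPM in a group, at most 12 by size of change in each contrast, and from each outside list up to 4 called genes per contrast could be named. Some genes of the outside lists are not reported here. Apoh, Fga and the members given by range were named outside that rule, after their values were seen, as were all genes listed by name within a count. Alternatives were a pseudocount of 0.1, no filter, a filter at 1 TPM, median-of-ratios scaling, a replicate block, thresholds of 0.1 and 5 TPM for expressed genes and leaving out each replicate. Leaving out UN1 and UH1 together was chosen after seeing the data.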

Additional observations from a re-analysis of the deposited data

Results flagged for a closer look

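For 8 plasma protein genes the response to hypoxia differed between sorted and unsorted cells in the limma test of the difference itself, (SH − SN) − (UH − UN) on the log2(TPM + 1) scale. Hp had a difference of −3.02 and Saa3 of −2.21, both lowered in both populations and more so in sorted cells. Hpx had 2.30, rising in sorted cells alone. Serping1 had −3.05 and Serpinf1 −1.53, rising past the threshold in unsorted cells. UN1 was the highest UN library of both and of the summed fibroblast markers, mainly collagens. Dcn and Pdgfrb of that list were called lower in UH than UN. Over 3875 genes UN1 lay at a median of 0.199 of the way from UN to UH. The part of these markers in the result was not tested. Apob had 1.79 and Cfb 1.32, with SN values already far below UN. Cp had −1.11, from opposite movements that were each under the fold threshold. Groups of 3 libraries were not tested for single outlying libraries.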

How the results depend on the processing

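Of 51 called values, 35 held under all 18 alternatives and 0 reversed. With a pseudocount of 0.1, 5 members were called higher in UH vs UN, 13 lower in SN vs UN and 4 higher in SH vs SN, while the counts over all genes went from 1032 to 1580, from 1431 to 2402 and from 1412 to 2854. Median-of-ratios scaling called 2 higher in SH vs UH. At 0.1 TPM, 39, 39, 31 and 35 members counted as expressed in UN, UH, SN and SH. At 5 TPM the counts were 15, 11, 12 and 12, so the order of the groups changed with the threshold.

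Leaving out 1 library gave 2 to 3 higher and 8 to 9 lower in UH vs UN, 2 to 3 and 7 to 9 in SN vs UN, 1 and 4 to 8 in SH vs SN (4 without SH3), 2 to 4 (2 without SH2) and 6 to 10 in SH vs UH (6 without SH3), and 3 to 4 and 3 to 6 in the difference of responses (3 lower without UN2, UN3, UH2 or UH3). Without UN1 and UH1 together, 5 were higher and 6 lower in the difference of responses, and 1930 and 740 over all genes. Leaving out 1 library gave, over all genes, 978 to 1152 higher and 1995 to 2620 lower in UH vs UN. It gave 536 to 744 and 1335 to 1714 in SN vs UN, and 1303 to 1630 and 942 to 1118 in SH vs UH. In the difference these were 1270 to 2117 and 344 to 636. In SH vs SN they were 1311 to 1671 and 896 to 1017, with 1017 lower without SH3 in place of 945. Expressed members ranged over 21 to 21 in UN, 17 to 19 in UH, 17 to 18 in SN and 15 to 16 in SH.

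Values that changed sign were all uncalled. With median-of-ratios scaling these were Hpx (0.083) and C1s1 (0.180) in UH vs UN, and C3 (−0.025) and C4b (−0.164) in the difference of responses. Without single libraries the ranges that crossed 0 were Trf (−0.134 to 0.207) and Fetub (−0.042 to 0.115) in SH vs SN, Apoc1 in SH vs UH (−0.483 to 0.228), C1s1 in UH vs UN (−0.267 to 0.002), C4b (−0.043 to 0.295), Lcn2 (−0.545 to 0.108) and Clu (−0.449 to 0.315) in the difference, and Saa3 in SN vs UN (−0.265 without UN1, to 0.410). Without UN1 and UH1 they were Apoc1 (0.228), Saa3 (−0.265) and Lcn2 (0.113). The cause was not tested.

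Replicate numbers did not pair the libraries (mean correlation of same-numbered deviations −0.0274 to 0.051). With a replicate block, 7 members were lower in SH vs SN and 4 in the difference of responses, losing Orm1 and Serpinf1, and the other counts were as before. The unknown depth limits members under 1 TPM most.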
